A study of Mus musculus with 4 samples.

Results

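The 35 genes described here encode the machinery by which a cell makes cholesterol and fatty acids, and they were chosen by symbol from a list of pathway members drawn up with earlier results of these data known. All 35 were found among the 55401 genes of the table, and all 35 were among the 14479 genes with enough counts to be tested. The study compared bulk RNA sequencing libraries of growth-phase (anagen) hair follicle stem cells from C57BL/6 mice on a normal diet (2 libraries) and from C57BL/6 mice given a high-fat diet for 4 months (2 libraries). No genetic alteration is named for either group. The age and sex of the mice, the time on the normal diet, the fat content of the diets, how the cells were isolated and whether each library came from a separate mouse or a pool are not stated in the labels. The p-values set the difference between the diets against the scatter of libraries within a diet, an estimate that borrows from all tested genes. That scatter may therefore be technical. In bulk RNA, fewer cells of a type and less RNA per cell cannot be told apart.

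Cholesterol is built from acetyl-CoA through mevalonate, isoprenoid pyrophosphates, squalene and lanosterol. Fatty acids are built from the same precursor by acetyl-CoA carboxylase and fatty acid synthase, and are then lengthened by elongases and given double bonds by desaturases. Both branches are under the control of the SREBP transcription factors, which SCAP escorts out of the endoplasmic reticulum when sterols are scarce and which the INSIG proteins hold back when sterols are plentiful. In skin these lipids go into sebum, the permeability barrier and the membranes of dividing keratinocytes. Mice that lack Scd1 are known for atrophy of the sebaceous glands and loss of hair.

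The libraries held between 8590570 and 9940848 counts. A floor of 3 counts, which was not used as a filter, corresponded to 0.291 to 0.359 CPM (counts scaled to library size, here with edgeR's TMM factors). The 8 markers of the follicle bulge, the niche of these stem cells, were all detected, with Krt15 at 1996, 2722, 3012 and 2978 CPM and Sox9 at 848, 848, 770 and 724 CPM in normal diet replicates 1 and 2 and high-fat diet replicates 1 and 2. Values for the 4 libraries are given in that order throughout. Of the 8 bulge markers, 6 were lower and 2 higher with the high-fat diet without overlap, beside 21.9% and 22.7% of all genes. Their median log2 fold change was -0.19, and their part in the result was not tested. Of 9 adipocyte markers, Adipoq, Lep, Plin1, Cidec, Cfd and Retn had a count of 0 in all 4 libraries and the summed level of the list was 3.56 to 8.97 CPM. The 7 dermal fibroblast markers summed to 45.7, 57.4, 82.2 and 66.1 CPM, with 7 positive log2 fold changes. Endothelial, immune and melanocyte markers summed to 8.35 to 20.6, 6.31 to 14.8 and 12.7 to 26.4 CPM. By sign, 3 of 3 tested endothelial and 3 of 4 immune markers were higher, and 3 of 3 melanocyte markers lower. The part of these cells in the result was not tested. The summed level of 10 proliferation markers was 4162, 2825, 2465 and 2665 CPM, highest in normal diet replicate 1, and that of 9 suprabasal epidermal markers was 1556, 3234, 4770 and 6086 CPM, lowest in that library and higher with the high-fat diet. These 2 lists are set beside the lipid genes below.

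The elongases and desaturases, which modify finished fatty acid chains, had median log2 fold changes of -0.67 (2 genes) and -0.33 (4 genes), and the squalene steps had -0.33 (3 genes). Elongases and desaturases, put together after their values were seen, had a median of -0.50. Both elongases and all 4 desaturases among the 35 (Elovl6, Elovl5, Scd1, Scd2, Fads1, Fads2) were lower in both high-fat libraries than in either normal-diet library. The differences ran from 1.21-fold for Scd2 to 2.07-fold for Fads2, and 21.9% of all genes tested were likewise lower without overlap between the diets. Outside the 35, the elongases Elovl4 and Elovl7 were higher with the high-fat diet (log2 fold changes 1.07 and 1.03). Fatty acid synthase (Fasn) and HMG-CoA synthase (Hmgcs1) lay at nearly the same level with both diets. No gene of the 35 passed the threshold of an adjusted p under 0.05 in edgeR's quasi-likelihood test with Benjamini-Hochberg adjustment over all genes tested, which called 1.12% of all genes higher and 0.228% lower. The smallest adjusted p, that of Elovl6, was 0.0859.

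Promoter sequences of 6 members are shown here. Of these, 5 are the members with a promoter entry that were lower with the high-fat diet at an unadjusted p under 0.05 (edgeR). Hmgcs1 is the only member with an entry whose window carries an exact match to the sterol regulatory element consensus. Each is the 250 bases upstream of the RefSeq start on build GRCm38.p6, written 5′ to 3′ on the gene's strand in lower case. The RefSeq starts differ from the deposited gene positions. By those positions the Fads2 window lies almost wholly inside the gene. The Msmo1, Idi1 and Elovl6 windows reach partly inside, and that of Elovl5 ends on the first base of the gene. Capitals mark matches on either strand to the sterol regulatory element TCACNCCAC bound by SREBP, the CCAAT box bound by NF-Y, the GC box GGGCGG bound by Sp1 and the E-box CACGTG. They come from chr3:129532136-129532385 (plus strand, Elovl6), chr9:77917115-77917364 (plus, Elovl5), chr19:10101504-10101753 (minus, Fads2), chr13:8885356-8885605 (plus, Idi1), chr8:64733579-64733828 (minus, Msmo1) and chr13:119690101-119690350 (plus, Hmgcs1).
Elovl6: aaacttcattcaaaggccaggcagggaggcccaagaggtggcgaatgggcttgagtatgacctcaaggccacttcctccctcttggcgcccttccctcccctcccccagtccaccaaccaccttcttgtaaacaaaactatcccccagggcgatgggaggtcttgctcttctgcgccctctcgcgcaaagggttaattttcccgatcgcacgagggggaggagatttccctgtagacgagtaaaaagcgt
Elovl5: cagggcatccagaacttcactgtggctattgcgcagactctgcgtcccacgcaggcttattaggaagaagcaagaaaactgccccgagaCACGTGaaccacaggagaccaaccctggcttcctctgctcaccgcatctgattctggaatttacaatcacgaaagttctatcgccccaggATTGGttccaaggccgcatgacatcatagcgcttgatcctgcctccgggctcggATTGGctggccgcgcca
Fads2: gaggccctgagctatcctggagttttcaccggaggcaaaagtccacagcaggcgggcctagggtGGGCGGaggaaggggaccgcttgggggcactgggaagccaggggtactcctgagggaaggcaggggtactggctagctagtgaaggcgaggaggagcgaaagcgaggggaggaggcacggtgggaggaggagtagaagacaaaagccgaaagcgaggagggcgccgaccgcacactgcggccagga
Idi1: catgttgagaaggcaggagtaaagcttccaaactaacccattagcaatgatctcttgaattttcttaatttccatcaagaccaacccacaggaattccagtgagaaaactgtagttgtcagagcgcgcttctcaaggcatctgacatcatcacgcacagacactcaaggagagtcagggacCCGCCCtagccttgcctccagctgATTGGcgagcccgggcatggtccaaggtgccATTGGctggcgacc
Msmo1: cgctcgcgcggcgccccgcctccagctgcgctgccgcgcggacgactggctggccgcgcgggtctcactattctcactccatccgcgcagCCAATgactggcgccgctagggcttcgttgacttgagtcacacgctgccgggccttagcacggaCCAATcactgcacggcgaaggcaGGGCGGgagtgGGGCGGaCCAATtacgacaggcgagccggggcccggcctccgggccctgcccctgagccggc
Hmgcs1: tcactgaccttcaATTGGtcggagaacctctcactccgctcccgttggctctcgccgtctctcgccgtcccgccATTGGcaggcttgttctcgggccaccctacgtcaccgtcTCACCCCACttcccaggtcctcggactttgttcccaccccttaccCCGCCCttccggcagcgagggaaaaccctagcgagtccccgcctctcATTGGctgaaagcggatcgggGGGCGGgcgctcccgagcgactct
The Elovl6 window held none of the 4 motifs. The Elovl5 window held 2 CCAAT boxes and 1 E-box, that of Idi1 held 2 CCAAT boxes and 1 GC box, and that of Fads2 held 1 GC box. The Msmo1 window held 3 CCAAT boxes and 2 GC boxes. The Hmgcs1 window held 3 CCAAT boxes, 2 GC boxes and the sterol regulatory element.

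A promoter entry was found for 28 of the 35 members, with 37 windows between them. The entries matched no window for Fads1, Fdft1, Fdps, Scd1, Scd2, Sqle and Stard4. A CCAAT box lay in 62.2% of the members' windows and in 33.9% of all 32851 windows of the table, and a GC box in 70.3% and 32.7%. An E-box lay in 16.2% of the members' windows and 6.02% of all, and the sterol regulatory element in 2.70% (1 window, Hmgcs1) and 1.05%. Counted by gene against the tested genes with an entry, the CCAAT box was found for 78.6% of the members and 40.9% of tested genes, the GC box for 82.1% and 64.6%, the E-box for 21.4% and 9.897%, and the sterol regulatory element for 3.57% and 1.25%. The median log2 fold change was -0.10 over the 22 members with a CCAAT box and -0.34 over the 6 without one, beside -0.02 and 0.00 (-0.0009) over the tested genes with and without one. A match describes the letters of the window and is not evidence of binding.

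Among all 35 members, 25 were lower and 10 higher with the high-fat diet by the sign of the log2 fold change. Their median log2 fold change (high-fat over normal diet) was -0.17, beside 0.00 (0.0018) over the 14479 genes. At an adjusted p under 0.05, edgeR called 0 members higher and 0 lower, beside 162 (1.12%) and 33 (0.228%) of all genes. At an unadjusted p under 0.05, 1 member was higher (Insig2) and 7 were lower (Fads2, Idi1, Elovl6, Elovl5, Fdft1, Msmo1 and Scd1), beside 7.24% and 6.03% of all genes. The libraries of the 2 diets did not overlap for 5 members that were higher (Insig2, Ebp, Me1, Fdps, Scap) and for 16 that were lower, beside 22.7% and 21.9% of all genes, and they overlapped for the other 14. DESeq2 and limma called 0 members higher, and DESeq2 called 1 lower (Elovl6, adjusted p = 0.0215) where limma on log2(FPKM + 1) called 0. With normal diet replicate 1 or 2 left out, the members' median log2 fold change was -0.107 or -0.223, beside 0.0151 or 0.0103 over all genes. With high-fat diet replicate 1 or 2 left out it was -0.129 or -0.193, beside -0.00475 or -0.00604.

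**Figure D1:**
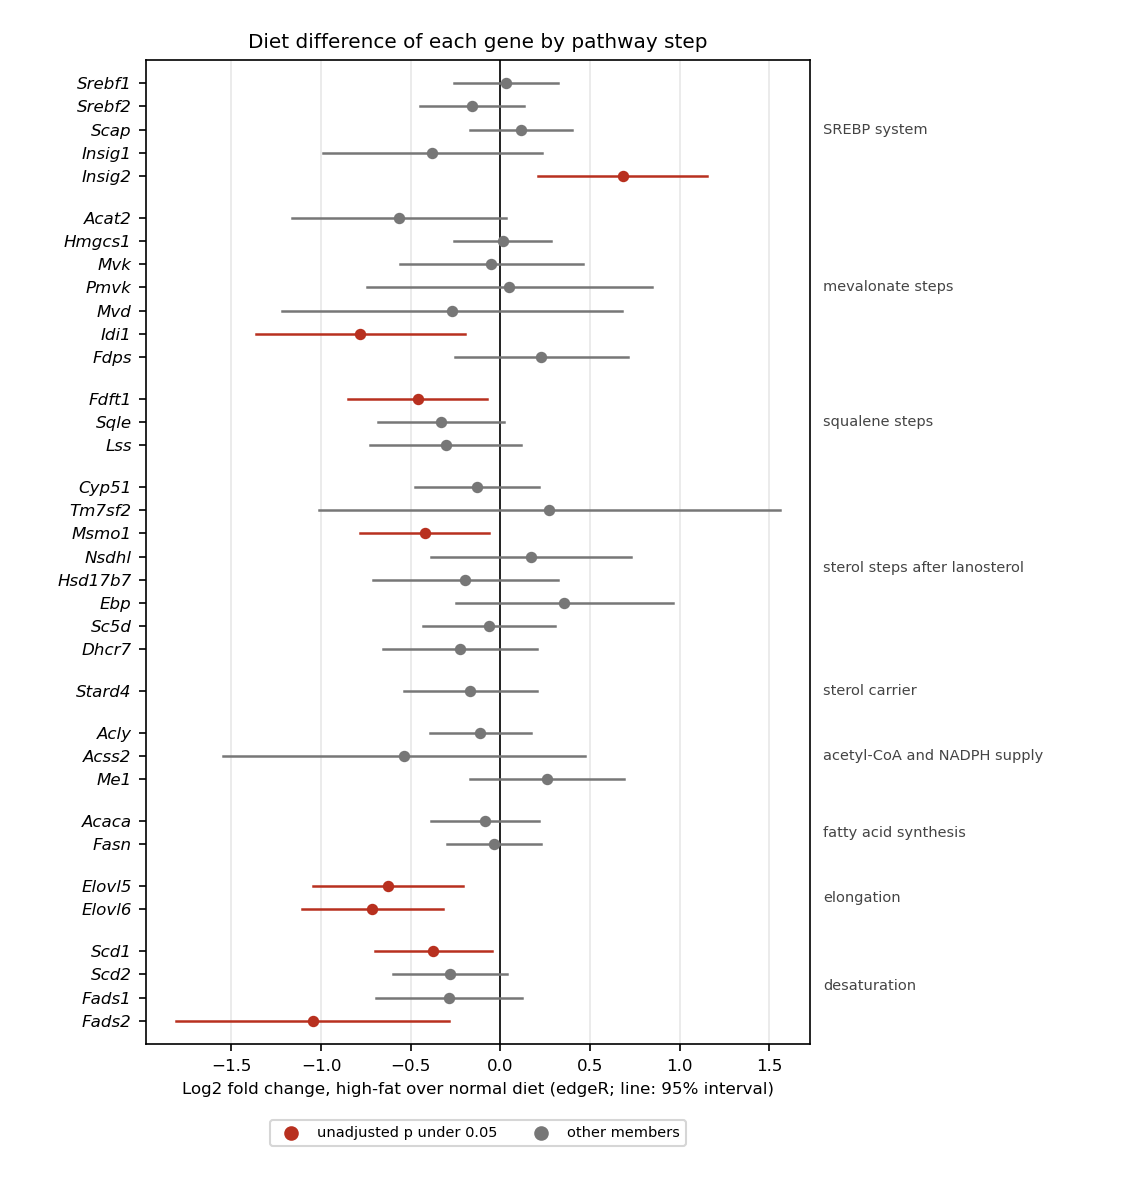
Log2 fold change (high-fat over normal diet, edgeR) of each of the 35 members with its 95% confidence interval, grouped by pathway step, with red for an unadjusted p under 0.05 and grey for the others. The 6 elongase and desaturase genes all lie to the left of 0, while Fasn, Hmgcs1 and Srebf1 lie close to it.

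Members differed widely in abundance. By FPKM, which divides counts by exonic length and so allows genes to be compared, Scd2 was the most abundant at a mean of 64.4 FPKM over the 4 libraries, before Scd1 (43.1 FPKM), Hmgcs1 (39.0 FPKM), Srebf2 (32.8 FPKM), Acly (30.6 FPKM) and Fasn (23.7 FPKM). The least abundant were Fads2 (2.91 FPKM), Tm7sf2 (0.763 FPKM) and Acss2 (0.503 FPKM). Tm7sf2, with 24 to 37 counts per library, and Acss2, with 34 to 64, have the widest 95% intervals of the log2 fold change (-1.01 to 1.56 and -1.55 to 0.47). Scd2 had the highest mean level with both diets, at 72.6 FPKM on the normal and 56.2 FPKM on the high-fat diet. Scd1 was second on the normal diet at 49.9 FPKM, and on the high-fat diet its 36.2 FPKM lay below the 38.0 FPKM of Hmgcs1.

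**Figure D2:**
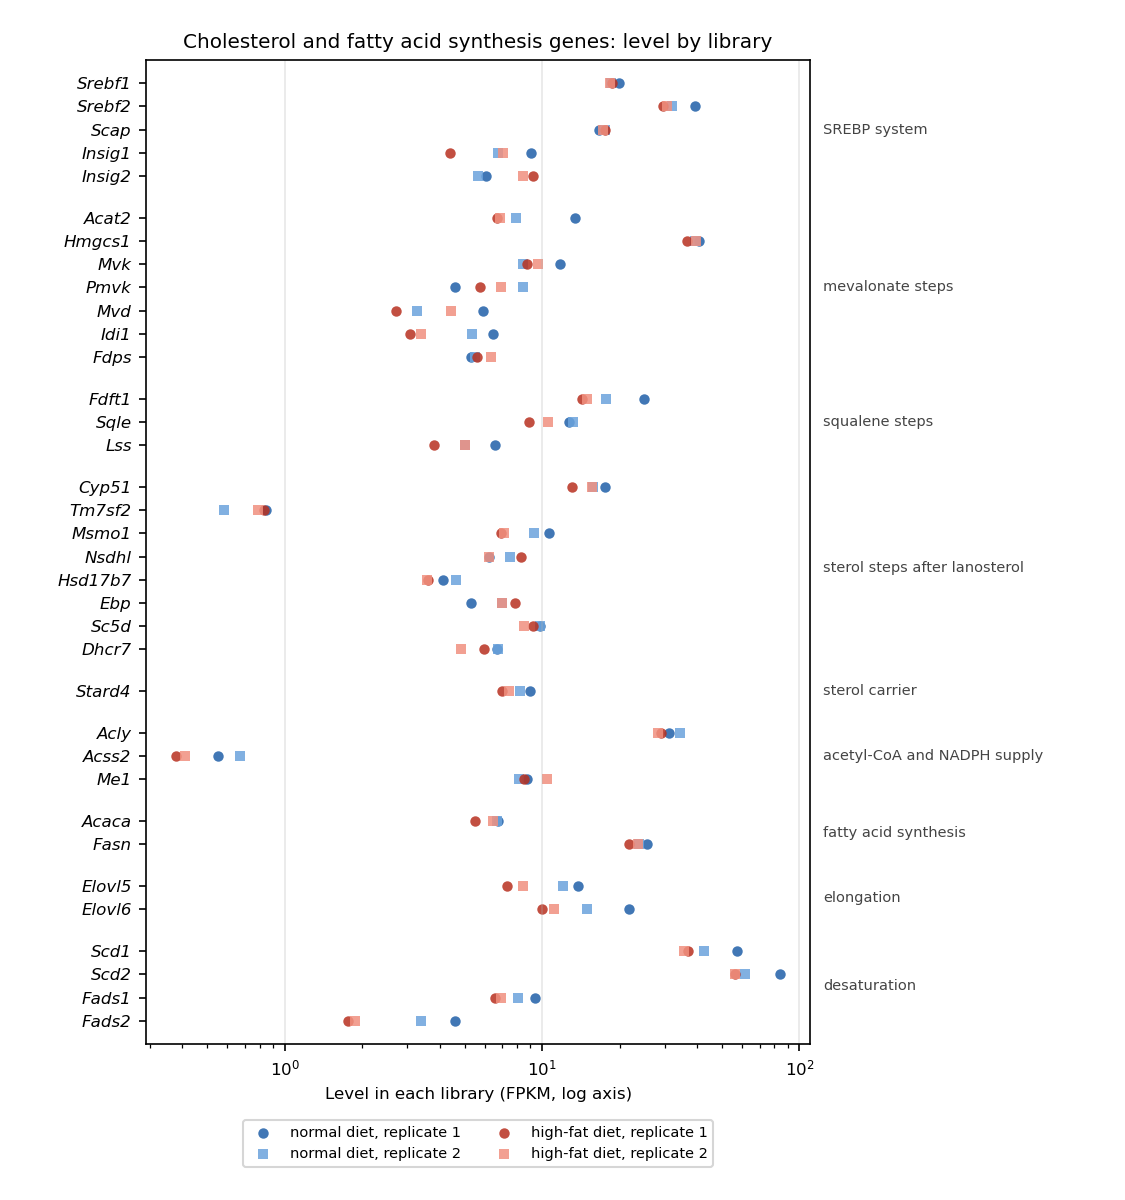
Level of each of the 35 members in FPKM on a log axis, by pathway step, with 1 symbol per library (blue for the normal and red for the high-fat diet, circles for replicate 1 and squares for replicate 2). Scd2 stands highest and Tm7sf2 and Acss2 lowest.

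The regulators came first in the order of control. Srebf1, which encodes the SREBP form that mainly drives fatty acid genes, was at 108, 103, 109 and 106 CPM. The log2 fold change of Srebf1, 0.03 ± 0.13 (SE, n = 2 against 2 libraries), had a 95% interval of -0.26 to 0.32. Srebf2, which encodes the form that mainly drives sterol genes, was at 273, 225, 221 and 225 CPM. One normal-diet library stood above the rest for Srebf2 and the other lay among the high-fat libraries, and the log2 fold change was -0.16 ± 0.13. Scap, the escort of the SREBPs, was at 120, 128, 136 and 132 CPM, with no overlap between diets but a log2 fold change of only 0.12 ± 0.13 (adjusted p = 0.767, edgeR). Exons of an antisense gene cover 13.2% of those of Scap.

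The 2 INSIG genes, which encode the endoplasmic reticulum anchors of SCAP, had opposite signs. Insig2 (chr1:121304353-121332589, GRCm38) was at 20.3, 19.2, 33.3 and 30.0 CPM. Both high-fat libraries stood above both normal-diet libraries, 1.60-fold on the fitted scale, with a log2 fold change of 0.68 ± 0.21 (adjusted p = 0.189, edgeR). Its log2 fold change lay between 0.61 and 0.76 with any 1 library left out. Insig1, itself a well known SREBP target, was at 27.1, 20.5, 14.2 and 22.5 CPM, so that the lowest library was a high-fat one but the diets overlapped. Its log2 fold change was -0.38 ± 0.28, and it lay between -0.75 (without high-fat diet replicate 2) and -0.08 (without high-fat diet replicate 1) with any 1 library left out. The difference between the 2 INSIG genes was not tested.

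The mevalonate steps run from acetyl-CoA to farnesyl pyrophosphate. Their 7 members had a median log2 fold change of -0.05, and 4 of 7 were lower with the high-fat diet. Hmgcs1, which makes HMG-CoA, was at 181, 177, 174 and 187 CPM with overlapping diets, and the estimate of 0.01 ± 0.12 on the log2 scale had a 95% interval of -0.26 to 0.28. Idi1 (chr13:8885501-8892451), the isomerase that interconverts the isoprene units, was at 21.9, 18.3, 11.2 and 12.2 CPM. Both normal-diet libraries stood above both high-fat libraries, by 1.72-fold on the fitted scale (log2 fold change -0.78 ± 0.27, adjusted p = 0.225, edgeR). Acat2, the cytosolic acetoacetyl-CoA thiolase at the head of the pathway, was at 32.9, 19.8, 17.7 and 17.9 CPM. The other 3 libraries lay close together below normal diet replicate 1: the log2 fold change was -0.56 ± 0.27 with all libraries, -0.15 without that one and -0.89 without normal diet replicate 2. The remaining 4 lay between -0.27 for Mvd, the decarboxylase, and 0.23 for Fdps, the farnesyl pyrophosphate synthase, with the kinases Mvk at -0.05 and Pmvk at 0.05, and of these only Fdps, at 21.5, 22.7, 24.4 and 27.4 CPM, had no overlap between diets.

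The 3 enzymes that make and close squalene were all lower with the high-fat diet, with a median log2 fold change of -0.33. Fdft1 (chr14:63145150-63179578), the squalene synthase that commits farnesyl pyrophosphate to sterols, was at 99.3, 71.5, 60.9 and 63.1 CPM. The normal-diet libraries were both above the high-fat ones but differed among themselves by more than the gap between the diets, and the log2 fold change of -0.46 ± 0.18 (adjusted p = 0.276, edgeR) became -0.20 without normal diet replicate 1 and -0.68 without normal diet replicate 2. Sqle, the squalene epoxidase and a rate-limiting enzyme of the pathway, was at 68.1, 71.9, 51.2 and 60.2 CPM, with both normal-diet libraries higher (log2 fold change -0.33 ± 0.16, adjusted p = 0.401, edgeR). Lss, which closes the ring to lanosterol, was at 68.5, 53.3, 42.7 and 55.8 CPM with overlapping diets and a log2 fold change of -0.31 ± 0.19.

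From lanosterol to cholesterol, 8 members had a median log2 fold change of -0.10, and 5 were lower and 3 higher. Msmo1 (chr8:64718139-64733792), the sterol methyl oxidase, was at 63.0, 56.2, 44.3 and 44.7 CPM. Each diet's libraries lay close together and the normal-diet ones were higher, 1.34-fold (log2 fold change -0.42 ± 0.16, adjusted p = 0.282, edgeR). Dhcr7, the reductase of the last step of one branch, was at 37.6, 38.5, 36.1 and 29.1 CPM, and Hsd17b7, a ketoreductase, at 20.3, 23.1, 19.2 and 18.8 CPM. Both were lower in the high-fat libraries without overlap, by -0.22 ± 0.20 and -0.19 ± 0.24 on the log2 scale, differences of about the size of their standard errors. Ebp, the sterol isomerase, was higher without overlap at 11.8, 15.8, 18.8 and 16.6 CPM (log2 fold change 0.36 ± 0.28). Cyp51 (-0.13), Sc5d (-0.06), Nsdhl (0.17) and Tm7sf2 (0.27 ± 0.59) had overlapping diets. Stard4, a carrier of sterol between membranes, was at 48.6, 45.0, 40.7 and 42.7 CPM, lower without overlap by -0.17 ± 0.17.

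Among the first steps of fatty acid synthesis, Acly, Acaca and Fasn differed little, while Acss2 and Me1 had larger log2 fold changes of opposite sign. Acly, which releases acetyl-CoA from citrate, was at 159, 177, 158 and 152 CPM (log2 fold change -0.11 ± 0.13). The high-fat libraries were both below the normal-diet ones, but normal diet replicate 1 and high-fat diet replicate 1 were nearly equal. Acss2, which makes acetyl-CoA from acetate, stood at only 5.44, 6.70, 4.05 and 4.31 CPM (-0.54 ± 0.46), and Me1, the malic enzyme that supplies NADPH, was higher without overlap at 32.3, 30.8, 34.1 and 41.5 CPM (0.26 ± 0.20). Acaca, the acetyl-CoA carboxylase, was at 111, 112, 97.7 and 113 CPM. Fasn, the fatty acid synthase, was at 270.4, 255, 248 and 265 CPM with overlapping diets, and the estimate of -0.03 ± 0.12 on the log2 scale had a 95% interval of -0.30 to 0.23.

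The elongases Elovl6 and Elovl5 had the smallest adjusted p-values of the 35 members in edgeR. Elovl6 (chr3:129532355-129638495), which lengthens palmitate to stearate, was at 135, 94.3, 66.6 and 73.5 CPM, that is 115 ± 29.0 CPM on the normal and 70.1 ± 4.89 CPM on the high-fat diet (SD, n = 2 each). Both high-fat libraries lay below both normal-diet libraries, by 1.64-fold on the fitted scale (log2 fold change -0.71 ± 0.18, adjusted p = 0.0859, edgeR). The adjusted p of Elovl6 ranged from 0.000829 to 0.475 over the alternatives in the closing section. Elovl5 (chr9:77917364-77984519), which lengthens polyunsaturated fatty acids, was at 46.7, 41.6, 26.8 and 30.4 CPM, with 44.1 ± 3.65 CPM on the normal and 28.6 ± 2.55 CPM on the high-fat diet (SD, n = 2 each). Its gap between diets exceeded the gap between the libraries of either diet, and it was 1.54-fold lower with the high-fat diet (log2 fold change -0.63 ± 0.19, adjusted p = 0.170, edgeR).

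**Figure D3:**
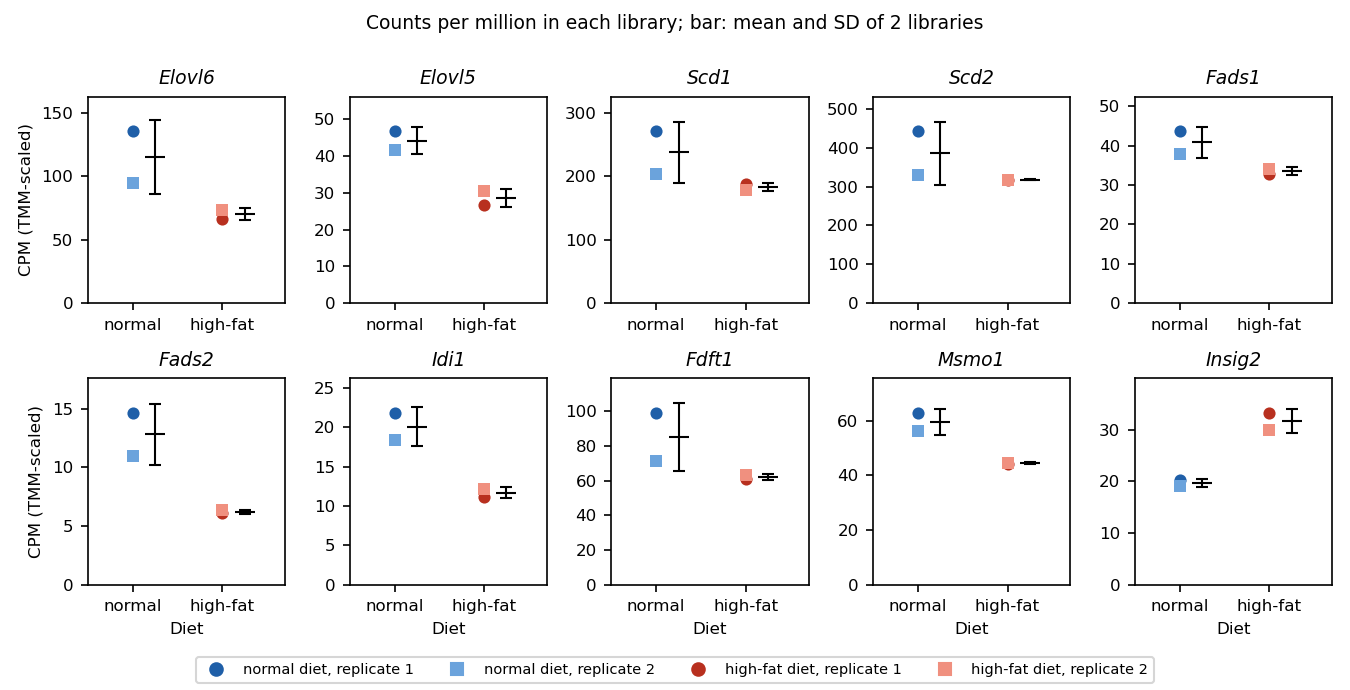
Level in CPM of single members in each library, with circles for replicate 1 and squares for replicate 2, blue for the normal and red for the high-fat diet, and bars for the mean and SD of the 2 libraries. The axes start at 0, and in every panel except that of Insig2 both red symbols lie below both blue ones.

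Among the desaturases, Scd1 and Scd2 place the double bond that turns stearate into oleate, and Fads1 and Fads2 act in turn on polyunsaturated fatty acids. Scd1 (chr19:44394455-44407879) was at 271, 204, 188 and 179 CPM, and Scd2 (chr19:44293674-44306864), its neighbour on the same chromosome, at 443, 329, 318 and 317 CPM. In both genes normal diet replicate 1 stood well above the other 3 libraries, and normal diet replicate 2 lay only slightly above the high-fat ones. The log2 fold changes were -0.37 ± 0.15 for Scd1 (adjusted p = 0.297, edgeR) and -0.28 ± 0.15 for Scd2 (adjusted p = 0.443, edgeR), and without normal diet replicate 1 they were -0.15 and -0.05, and without normal diet replicate 2 they were -0.57 and -0.48. Fads2 (chr19:10062765-10101746) had the lowest ratio of the 35 members: it was at 14.7, 11.0, 6.07 and 6.34 CPM, 2.07-fold lower with the high-fat diet (log2 fold change -1.05 ± 0.35, adjusted p = 0.208, edgeR), on 51 to 151 counts per library. Its partner Fads1 (chr19:10182888-10196877) was at 43.7, 38.0, 32.8 and 34.2 CPM, lower without overlap (-0.29 ± 0.19, adjusted p = 0.569, edgeR).

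The 6 elongase and desaturase genes summed to 954, 717, 638 and 640 CPM, and all 6 were highest in normal diet replicate 1. Over all 35 members that library was the highest for 18, beside 4129 of the 14479 genes. The median log2 ratio of normal diet replicate 1 to replicate 2 was 0.41 for the 6 genes and 0.11 for the 35 members, beside 0.00 (-0.0012) over all genes. Without normal diet replicate 1 the median log2 fold change of the 6 genes was -0.30, compared with -0.50 with all libraries, and it was -0.64 without normal diet replicate 2, with 6 of 6 genes negative in each case. The proliferation markers shared this order of libraries: all 10 were highest in normal diet replicate 1, and their median log2 fold change was -0.55. Of these 10, 1 (Cdc20) was called lower (adjusted p = 0.0328, edgeR), beside 0.228% of all genes. The part of the proliferation markers in the result was not tested. Nor was that of the suprabasal markers, of which 4 of 9 were called higher, beside 1.12% of all genes. The summed level of 13 sebocyte markers was 626, 648, 994 and 847 CPM, most of it from Krt79 (486, 450, 806 and 664 CPM, called higher, adjusted p = 0.0333, edgeR). Of the 8 tested sebocyte markers 4 had a positive and 4 a negative log2 fold change. Scd3, a sebaceous desaturase, was lower without overlap at 1.26, 2.30, 0.476 and 0.957 CPM, on only 13, 22, 4 and 8 counts (adjusted p = 0.611, edgeR). Among the 5 that were too low to test, Awat2 had 7, 11, 3 and 3 counts and Pparg 18, 5, 6 and 5 counts, and Awat1 had at most 4. The part of sebocyte RNA in the result was not tested.

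**Figure D4:**
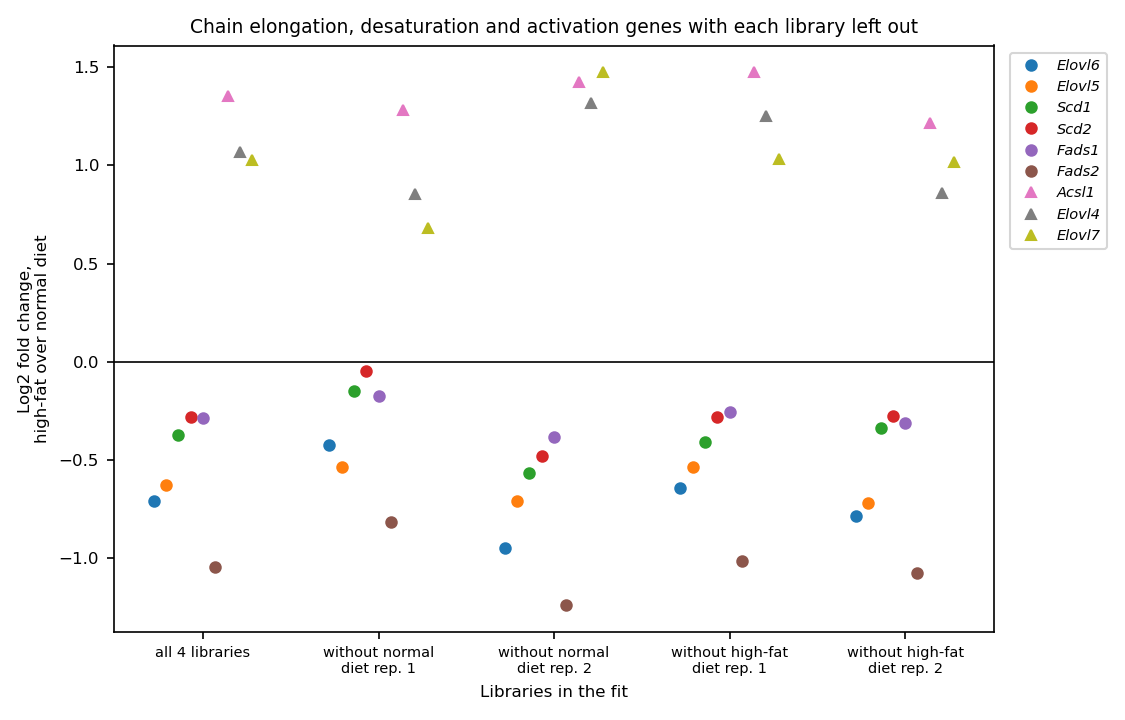
Log2 fold change (high-fat over normal diet, edgeR) of the 6 elongase and desaturase genes (circles) and of Acsl1, Elovl4 and Elovl7 (triangles), with all 4 libraries and with each library left out. The circles stay below 0 and the triangles above it in all 5 fits, and Scd2 lies nearest to 0, at -0.05, without normal diet replicate 1. The diets did not overlap for any gene shown, so leaving out a library could hardly change a sign.

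Other genes of the pathways were read from lists that do not contain the 35. Fatty acid activation, elongation and esterification had 28 tested genes. At an adjusted p under 0.05 edgeR called 2 higher and 0 lower, beside 1.12% and 0.228% of all genes. By sign, 15 were higher and 13 lower, with a median log2 fold change of 0.03. Acsl1 (chr8:46471037-46536051), which activates long-chain fatty acids to their CoA esters, was at 19.8, 22.0, 48.7 and 58.1 CPM, 2.55-fold higher with the high-fat diet (log2 fold change 1.35 ± 0.20, adjusted p = 0.0082, edgeR). Elovl4 (chr9:83778692-83806277), the elongase of very long chains used in barrier ceramides, was at 27.4, 38.0, 59.4 and 77.7 CPM, 2.10-fold higher (1.07 ± 0.21, adjusted p = 0.0329, edgeR). Both calls were lost without normal diet replicate 1 (adjusted p = 0.464 for each), without normal diet replicate 2 (0.141 for Acsl1 and 0.165 for Elovl4), without high-fat diet replicate 2 (0.0630 and 0.246) and in limma on log2(FPKM + 1) (0.179 and 0.182), and that of Elovl4 also when libraries were scaled to equal sums of TPM (0.0751). Elovl7, another elongase, was at 6.60, 11.5, 18.3 and 18.5 CPM (1.03 ± 0.32, adjusted p = 0.189, edgeR). Elongases had both signs in these libraries, with Elovl6 and Elovl5 lower and Elovl4 and Elovl7 higher, and a difference between them was not tested. The desaturase genes outside the 35 also had both signs, with Scd3 lower. Fads3 had 1, 28, 24 and 42 counts with overlapping diets (log2 fold change 1.38 ± 0.99, adjusted p = 0.610, edgeR). The suprabasal marker Krt10, at 548, 1158, 1805 and 2367 CPM, was likewise higher with the high-fat diet (adjusted p = 0.0396, edgeR).

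Among 16 tested genes of sterol transport, storage and oxysterols, edgeR, DESeq2 and limma called 0 (3 were higher and 0 lower at an unadjusted p under 0.05 in edgeR, beside 7.24% and 6.03% of all genes), with a median log2 fold change of 0.11. Nceh1, a neutral cholesterol ester hydrolase, was at 4.37, 5.23, 13.3 and 12.7 CPM (1.44 ± 0.36, adjusted p = 0.0839, edgeR), with both high-fat libraries well above both normal-diet ones, and it was called with no filter on low counts (adjusted p = 0.0180, edgeR). Mylip, a ubiquitin ligase that degrades lipoprotein receptors, was at 20.8, 24.0, 38.1 and 35.2 CPM (0.71 ± 0.21, adjusted p = 0.145, edgeR). The sterol exporter Abcg1 was at 3.21, 2.41, 5.35 and 8.01 CPM (1.25 ± 0.51, adjusted p = 0.313, edgeR). All 3 were higher in both high-fat libraries without overlap.

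Of 15 tested genes for SREBP processing and transcription partners, edgeR, DESeq2 and limma called 0 (0 higher and 2 lower at an unadjusted p under 0.05 in edgeR, beside 7.24% and 6.03% of all genes), with a median of -0.04. Mlxipl, which encodes the carbohydrate-responsive factor ChREBP, was near the floor with 25, 12, 1 and 5 counts, lower in both high-fat libraries (adjusted p = 0.379, edgeR). Nfya and Nfyb encode subunits of the CCAAT-binding factor NF-Y, and Nfyc, the remaining subunit, was added after its values were seen: Nfya was at 83.0, 85.6, 69.1 and 56.8 CPM (-0.42 ± 0.16), Nfyb at 69.8, 71.5, 52.6 and 53.2 CPM (-0.42 ± 0.15) and Nfyc at 83.4, 69.2, 62.3 and 58.8 CPM (-0.33 ± 0.16). The normal-diet libraries lay above the high-fat ones for each subunit, and none passed the threshold (adjusted p = 0.260, 0.253 and 0.397, edgeR). The same tools called 0 of 14 genes of the isoprenoid branches, with a median of -0.02 and 0 genes at an unadjusted p under 0.05. The smallest p there was that of Dolk, the dolichol kinase (adjusted p = 0.392, edgeR), at 2.72, 6.59, 10.8 and 7.89 CPM. They called 0 of 5 genes of NADPH supply, with a median of -0.07 and 2 genes lower at an unadjusted p under 0.05, beside the same 6.03%. Idh1, the cytosolic isocitrate dehydrogenase, was at 192, 203, 152 and 152 CPM (-0.38 ± 0.12, adjusted p = 0.201, edgeR). Mthfd1, of folate metabolism, was at 203, 164, 128 and 144 CPM (-0.43 ± 0.14, adjusted p = 0.213, edgeR). Both normal-diet libraries were above both high-fat ones for the pair.

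Several members share sequence with other genes, and no source used here says how reads that fit several genes or strands were counted. By runs of 50 bases in GENCODE transcripts, the shared part was 39.1% for Acat2 (with Acat3 and Tcp1), 30.4% for Acaca, 28.3% for Me1, 26.5% for Fdft1, 26.2% for Fdps, 25.3% for Idi1, 11.6% for Hmgcs1, 9.96% for Scap and 9.87% for Tm7sf2. Exons of Fdft1 overlap Ctsb on the opposite strand over 18.3% of their length. The values of these genes are uncertain to that extent. The shared part was 3.98% for Elovl6, 4.56% for Scd1, 3.97% for Scd2 and 0.152% for Fads2, and 0 for Elovl5, Fads1, Insig2 and Fasn.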

How the data were processed

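The authors deposited 1 table with whole-number counts and FPKM (counts scaled by exonic length and library total) per gene and library. The deposited FPKM equal the counts divided by exonic size and library total within 0.005. Tools listed in the submitters' processing notes are HISAT2 2.0.1, cutadapt 1.9.1 and bcl2fastq 2.17.1.14. For the counting program, strand setting, annotation and genome build, the entry is: not given in the sources used here. Of 55401 gene identifiers, 54821 have the same position in the GENCODE annotation of GRCm38, the members included.

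Counts were tested in R 4.3.3 with edgeR 4.0.16 (TMM scaling, filterByExpr with a minimum count of 10, quasi-likelihood test, 2 libraries per diet, Benjamini-Hochberg adjustment over 14479 genes, calls at an adjusted p under 0.05). CPM are scaled by TMM factors of 0.965 to 1.04. DESeq2 1.42.0 and limma 3.58.1 on log2(FPKM + 1) were alternatives, as were other scalings, filters and thresholds, a replicate term and leaving out each library. Depth was 8590570 to 9940848 counts per library, and a floor of 3 counts covers counting error only. The scripts were tested on simulated data.

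The members and lists were chosen with earlier results of these data known. All members may be named, and from other lists the called genes and up to 3 with the smallest p. Nfyc and Fads3 were named outside that rule. Promoters are RefSeq windows on GRCm38.p6.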

Additional observations from a re-analysis of the deposited data

How the results depend on the processing

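Of 558 member values recomputed, 23 changed sign, in 8 members whose fold changes lay close to 0 or whose libraries scattered. Scaling by total counts gave log2 fold changes of -0.055 for Srebf1, -0.073 for Hmgcs1 and -0.033 for Pmvk, and equal sums of TPM gave -0.044 for Srebf1 and -0.058 for Hmgcs1. limma gave -0.052 for Srebf1 and -0.073 for Hmgcs1 with a pseudocount of 1, and -0.054 and -0.075 with 0.1, and DESeq2 gave -0.0057 for Hmgcs1. With each library left out in turn the values ran from -0.19 to 0.014 for Acaca, -0.082 to 0.014 for Fasn, -0.039 to 0.063 for Hmgcs1, -0.66 to 0.20 for Mvd, -0.26 to 0.20 for Mvk, -0.059 to 0.37 for Nsdhl, -0.33 to 0.56 for Pmvk and -0.010 to 0.075 for Srebf1. The 6 elongase and desaturase genes, grouped after their values were seen and without overlap between diets, kept a negative sign in every alternative run. Leaving out a library could hardly have changed that sign. The members' median lay between -0.25 and -0.11. The number of members called lower was 1 (Elovl6) in place of 0 with no filter on low counts, in DESeq2, with a replicate block and at an adjusted p under 0.1. Nceh1, outside the 35, was called with the replicate block (adjusted p = 0.0416, edgeR).

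Over all genes the numbers called higher and lower, 162 and 33, depend strongly on the processing. Genes called higher numbered 88 with equal sums of TPM, 408 with no filter, 2 in limma with either pseudocount, 308 with the replicate block, 280 at an adjusted p under 0.1 and 37 under 0.01, and ran from 0 to 81 with each library left out. Genes called lower numbered 65 with total counts, 3 with equal sums of TPM, 225 with no filter, 55 at a mean FPKM of at least 1, 113 in DESeq2, 0 in limma, 60 with the robust variance prior, 111 with the replicate block, 101 at an adjusted p under 0.1 and 1 under 0.01, and ran from 0 to 2 with each library left out. The cause of these differences was not tested. The labels do not say that replicate numbers pair the libraries, so the replicate block has no basis in the labels. Deviations of same-numbered libraries correlated at -0.013 over 14479 genes and at -0.32 over the members. These correlations cannot show whether libraries were paired. With 2 libraries per diet, leaving 1 out assumes that the lone library varies like the other group, and members with few counts, such as Tm7sf2 and Acss2, have intervals too wide to place.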
